A study of Rattus norvegicus with 12 samples.

Results

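UMR-106, a rat osteoblast-like osteosarcoma line, was cultured for 24 h with NaCl raised by 20 mM (+NaCl) or lowered by 20 mM (-NaCl), and the RNA of control cells in the 2 media was compared across all genes. The comparison used 6 of the 12 libraries of the series, 3 control +NaCl and 3 control -NaCl, chosen by the column names of the deposited table. The other 6 libraries came from NFAT5 knockout cells in the same media and did not enter. The control cells are labelled WT and were not edited, so the +NaCl and -NaCl groups share the line, the genotype, growth in DMEM with serum before the treatment and, per the methods, an experimental DMEM with 1 nM calcitriol, for which no serum is stated. The media differed by 40 mM NaCl. Per the methods, low-NaCl medium was a custom formulation made without NaCl, otherwise matched to DMEM, with NaCl added back, so the source of the medium and its NaCl cannot be told apart. No library of cells in unchanged medium was among the 6, so each difference below lies between the 2 media and does not say which of them moved a gene. The 3 libraries of a group are described in the methods as biological replicates of this 1 line. The names of the 2 deposited tables contradict the names of their columns, and the identity of the control libraries rests on the columns.

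Na+ and Cl- cross the plasma membrane poorly, so a rise of their concentration outside the cell draws water out and a fall lets water in. Cells answer a hypertonic medium with ion uptake through cotransporters and exchangers and then with transporters and enzymes that accumulate compatible organic osmolytes, and the transcription factor NFAT5 drives many of these genes. Osteoblasts lay down collagen I and non-collagenous matrix proteins, mineralize them with phosphate released by alkaline phosphatase and PHOSPHO1, and are the cells, with osteocytes, that make the phosphate-lowering hormone FGF23.

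The values are normalized read counts, whole reads divided by 1 factor per library. The libraries held between 15030201 and 19127881 reads assigned to genes, and between 17193 and 17643 genes had a read. Principal component 1 carried 33.1% of the variance and separated the media, with scores of -41.93, -31.75 and -32.53 in +NaCl libraries and of 28.35, 38.79 and 39.06 in -NaCl libraries. Component 2 (18.4%) set +NaCl replicate 1 (score 49.24) apart from +NaCl replicates 2 and 3 (-34.07 and -22.94). The osteoblast markers had summed normalized counts of 146950 to 155440 in +NaCl cells and 93318 to 101260 in -NaCl cells. Leukocyte markers summed to 57.3 to 83.0 in +NaCl cells and 68.6 to 81.9 in -NaCl cells, and endothelial markers to 69.1 to 89.6 in +NaCl cells and 45.6 to 69.5 in -NaCl cells, with no member of either list past the test. Muscle markers summed to 161 to 182 in +NaCl cells and 131 to 160.2 in -NaCl cells, and 1 of 9 passed, the smooth muscle myosin Myh11 (1.07 ± 0.21 (SE), adjusted p = 0.00312). Adipocyte markers summed to 891 to 977 in +NaCl cells and 1107.5 to 1187 in -NaCl cells without overlap, and 1 of 9 passed, the lipoprotein lipase Lpl (-0.64 ± 0.06 (SE), adjusted p = 3.83e-05). The part of other cell types in the results was not tested.

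Of the 17108 genes that averaged 1 normalized count or more, 4450 (26.0%) differed between +NaCl and -NaCl cells at an adjusted p below 0.05 (limma on log2(count + 1), Benjamini-Hochberg over all tested genes). Of these, 2282 (13.3%) were higher with +NaCl and 2168 (12.7%) were lower. Most changes were small, since 3288 of the called genes differed by less than 1.5-fold. At least 2-fold higher were 265 genes (1.55%) and at least 2-fold lower were 208 (1.22%). The groups did not overlap in 6960 genes (40.7%). Calls depended on level, with 2.9% of genes called at mean counts of 1 to 10, 32.3% at 100 to 1000 and 47.2% at 10000 or more. The median log2 fold change over all tested genes was 0.00. A count of members of a gene list is read below against 13.3% higher and 12.7% lower. These shares cover all levels and were not matched to the level of a list's members. At mean counts of 1000 to under 10000, 1016 genes were called higher and 813 lower of 3957, and at 10000 and over 38 and 55 of 197. A list of abundant genes can thus exceed the shares of all genes through its level.

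**Figure D1:**
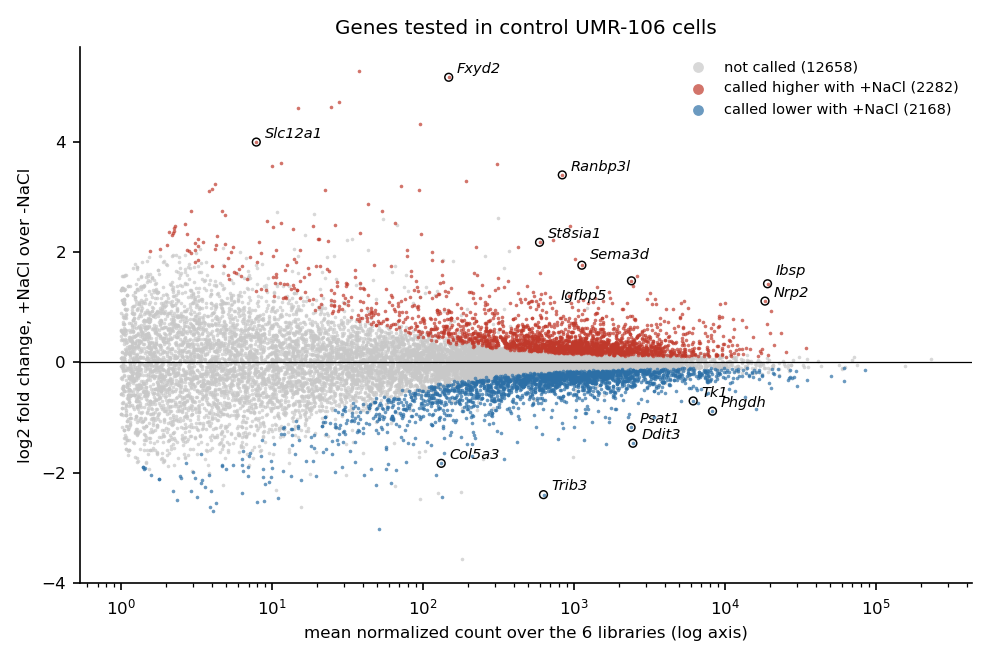
The log2 fold change of +NaCl over -NaCl (y axis) against the mean normalized count of the 6 libraries (x axis, log scale) for 17108 tested genes, with 2282 genes called higher in red, 2168 called lower in blue and 14 genes labelled. Called genes lie on both sides of 0 at every level, and the folds of abundant genes are small.

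Genes of organic osmolyte transport and synthesis did not move as a group, as 5 rose and 4 fell of 19 tested (median log2 fold change -0.00). Slc38a4, a neutral amino acid transporter of system A, had the largest rise of the list. It had 3456, 3471 and 3682 normalized counts in +NaCl cells, against 1475, 1357 and 1249 in -NaCl cells. Every +NaCl library was more than 2-fold above every -NaCl library (log2 fold change 1.38 ± 0.06 (SE), adjusted p = 1.75e-07). Slc6a6, the taurine transporter, had 5719.8, 6547 and 6737 counts with +NaCl and 4584, 4545 and 5147 with -NaCl (0.41 ± 0.07 (SE), adjusted p = 0.000962). Its groups did not overlap either. Slc44a1, a choline transporter, rose with a log2 fold change of 0.50 (adjusted p = 8.67e-05). Akr1b1, the aldose reductase that makes sorbitol, did not pass, with 2609, 2443 and 2721 counts in +NaCl cells and 2351, 2346 and 2441 in -NaCl cells (0.12 ± 0.05 (SE), adjusted p = 0.0878), but it was called higher without +NaCl replicate 2 (0.16, adjusted p = 0.0459). The betaine transporter Slc6a12 was near the detection limit in both media, at 1.13, 8.74 and 3.76 counts with +NaCl and 0, 1.04 and 2.79 with -NaCl (1.23 ± 0.75 (SE), adjusted p = 0.271). The creatine transporter Slc6a8 (log2 fold change -0.44), sorbitol dehydrogenase Sord (-0.31), the inositol phosphatase Impa2 (-0.65) and the glutamine transporter Slc38a1 (-0.32) were the 4 members that fell.

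Of the other genes known to answer tonicity, 11 rose and 1 fell of 22 tested (median log2 fold change 0.28). Fxyd2, an FXYD-family regulator of ion transport, had 269.5, 275 and 321 counts in +NaCl cells, against 14.1, 6.21 and 3.72 in -NaCl cells (5.17 ± 0.36 (SE), adjusted p = 3.09e-06). Ranbp3l, which binds the small GTPase Ran, had 1526, 1439 and 1635 counts with +NaCl and 141, 152 and 139.6 with -NaCl (3.40 ± 0.07 (SE), adjusted p = 1.72e-09). Both were far above the -NaCl range in every +NaCl library. The urea transporter Slc14a1 had 165, 187 and 219 counts in +NaCl cells, against 67.8, 66.3 and 73.5 in -NaCl cells (1.44 ± 0.15 (SE), adjusted p = 4.8e-05). The lowest +NaCl library was more than 2-fold above the highest -NaCl library. Hspa4l, an osmotic stress protein of the HSP110 family, had 337, 308 and 343 counts with +NaCl and 222, 208 and 235 with -NaCl (0.57 ± 0.09 (SE), adjusted p = 0.00101). The inducible chaperone Hspa1b did not pass, with 15.9, 13.1 and 11.3 counts with +NaCl and 12.3, 17.6 and 9.31 with -NaCl (0.06 ± 0.37 (SE), adjusted p = 0.924), and it overlaps genes of the major histocompatibility complex on the same strand in the table's coordinates. Gadd45g was the member that fell (log2 fold change -0.56).

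Transporters of ions split by type. Of the cotransport and volume-regulation genes, 13 rose and 8 fell of 39 tested (median log2 fold change -0.01), with 4 fallers without +NaCl replicate 2 and 5 without -NaCl replicate 1 or 2. Slc12a1, the Na-K-2Cl cotransporter known from the kidney's thick ascending limb, was the only gene with at least 30 reads in a medium and 0 in the other. It had 19, 15 and 10 reads in +NaCl libraries and 0 in each -NaCl library, which is at least 16.2-fold higher with +NaCl against a floor of 3 reads over the -NaCl group. Its ubiquitous relative Slc12a2, which loads cells with Na+, K+ and Cl-, had 1315, 1399.6 and 1443 normalized counts in +NaCl cells, against 1016, 1072 and 981 in -NaCl cells (0.44 ± 0.06 (SE), adjusted p = 0.000221). The groups did not overlap. In the opposite direction, the K-Cl cotransporter Slc12a4, which lets K+ and Cl- out of swollen cells, had 3598, 3438 and 3388 counts with +NaCl and 4353, 4343 and 4600.2 with -NaCl (-0.35 ± 0.04 (SE), adjusted p = 0.000135), again without overlap. Slc12a7, another K-Cl cotransporter (log2 fold change -0.27), and Lrrc8b and Lrrc8d, subunits of the volume-regulated anion channel (-0.33 and -0.28), also fell. The Na+/Ca2+ exchanger Slc8a3 had 3047, 3007 and 3118 counts in +NaCl cells and 1557, 1468 and 1329.9 in -NaCl cells (1.08 ± 0.06 (SE), adjusted p = 4.63e-07). The Na+/H+ exchanger Slc9a2 had 425, 411 and 401 counts with +NaCl and 285, 262 and 241 with -NaCl (0.65 ± 0.09 (SE), adjusted p = 0.000296). In both exchangers every +NaCl library was higher.

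NFAT5 binds the tonicity-responsive enhancer, and the promoters of 3 rising genes that hold a match to it are shown because the letters can be read beside the counts. They are RefSeq windows on GRCr8 from 250 bases before to 50 after the gene's start, 5′ to 3′ on the gene's strand, with matches on either strand in capitals. Slc38a4 (chr7:130082120-130082419, minus strand), St8sia1 (chr4:177651504-177651803, minus strand) and Igfbp5 (chr9:81914138-81914437, minus strand) follow.
Slc38a4: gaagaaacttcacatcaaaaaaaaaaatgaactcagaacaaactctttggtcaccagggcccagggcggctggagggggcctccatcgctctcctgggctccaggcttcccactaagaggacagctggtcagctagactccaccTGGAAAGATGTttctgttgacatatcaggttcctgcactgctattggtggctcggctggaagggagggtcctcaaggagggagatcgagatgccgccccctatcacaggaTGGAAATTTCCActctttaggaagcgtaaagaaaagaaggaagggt
St8sia1: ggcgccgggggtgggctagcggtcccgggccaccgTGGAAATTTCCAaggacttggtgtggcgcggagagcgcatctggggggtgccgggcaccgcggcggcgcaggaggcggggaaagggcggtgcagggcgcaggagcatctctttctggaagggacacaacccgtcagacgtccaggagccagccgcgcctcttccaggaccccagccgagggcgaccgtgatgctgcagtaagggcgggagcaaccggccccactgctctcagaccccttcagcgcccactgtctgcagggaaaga
Igfbp5: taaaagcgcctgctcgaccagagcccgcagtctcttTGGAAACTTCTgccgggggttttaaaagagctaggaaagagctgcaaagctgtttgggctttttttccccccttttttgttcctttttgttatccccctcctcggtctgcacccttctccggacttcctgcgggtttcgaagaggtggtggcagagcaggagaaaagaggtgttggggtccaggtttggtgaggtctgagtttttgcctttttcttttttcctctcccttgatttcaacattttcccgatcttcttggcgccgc
St8sia1, the sialyltransferase that makes ganglioside GD3, had 985, 906 and 1024 counts in +NaCl cells, against 207, 212 and 222 in -NaCl cells (2.18 ± 0.07 (SE), adjusted p = 2.58e-08). Igfbp5, a binding protein for insulin-like growth factors that osteoblasts deposit in matrix, had 3524, 3527 and 3591 counts with +NaCl and 1283, 1261 and 1270.3 with -NaCl (1.48 ± 0.04 (SE), adjusted p = 6.88e-09). In both genes each +NaCl library was more than 2.5 times each -NaCl library.

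A window was found by symbol for 10677 of the 17108 tested genes. The enhancer's consensus, searched on both strands, was in 7.59% (12 of 158) of the windows of genes called at least 2-fold higher with +NaCl, in 3.91% (5 of 128) of those at least 2-fold lower, in 3.51% (375 of 10677) of all tested genes and in 5.96% (1636 of 27457) of all windows in the table. Over all genes called higher, whatever the fold, the share was 3.9% (65 of 1668). Fallers described below, such as Atf5 and Tnfaip2, also held a match. The core of the consensus is shared with sites of other NFAT proteins and of NF-kB, and these shares are descriptions without a test.

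Osteoblast genes were higher with +NaCl throughout most of the list. Of these genes, 14 rose and 2 fell of 18 tested (median log2 fold change 0.62), or 77.8% higher against 13.3% of all tested genes. Leaving out any 1 of the +NaCl libraries left 1 faller. The lowest log2 fold change of the list, -0.48, was that of Atf4, which is described below with its targets. Ibsp (ENSRNOG00000002158, chromosome 14, 6801204 to 6813945, minus strand, in the table's coordinates, whose build is not given in the sources used here) encodes bone sialoprotein, a nucleator of hydroxyapatite. It had 29280.5, 27495 and 27192 counts in +NaCl cells, against 10806, 10258 and 10185 in -NaCl cells. The lowest +NaCl library was more than 2.5 times the highest -NaCl library (log2 fold change 1.43 ± 0.04 (SE), adjusted p = 9.07e-09). Per kb of listed length, Ibsp stood at 14502 in +NaCl cells and 5397 in -NaCl cells, osteopontin Spp1 at 9151 in +NaCl cells and 6014 in -NaCl cells and alkaline phosphatase Alpl at 7302 in +NaCl cells and 5291 in -NaCl cells, so Ibsp had the highest level of the 3 in +NaCl cells and Spp1 in -NaCl cells. Col1a1, the alpha-1 chain of collagen I, had 27858, 26998 and 28152 counts with +NaCl and 18922, 19496 and 19292 with -NaCl (0.52 ± 0.03 (SE), adjusted p = 2.25e-06). Alpl had 18256, 17207 and 17901 counts in +NaCl cells, against 12384, 12475 and 13805 in -NaCl cells (0.47 ± 0.05 (SE), adjusted p = 4.06e-05). In both genes the groups did not overlap. Osteonectin Sparc (0.46 ± 0.04 (SE), adjusted p = 1.75e-05), Spp1 (0.61 ± 0.06 (SE), adjusted p = 2.24e-05) and the mineralization-associated membrane protein Ifitm5 (0.89 ± 0.05 (SE), adjusted p = 1.17e-06) rose as well. Bglap, osteocalcin, was near the detection limit at 7.93, 3.28 and 1.88 counts with +NaCl and 7.92, 2.07 and 5.58 with -NaCl (-0.24 ± 0.61 (SE), adjusted p = 0.822). In bulk RNA a change in the share of cells that express a gene and a change in RNA per cell cannot be told apart.

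Col1a2 differed from Col1a1 in its spread. It had 5635, 8580.1 and 12881 counts in +NaCl cells, against 4279, 4686 and 6685 in -NaCl cells. The +NaCl libraries spanned more than 2-fold and the groups overlapped (0.74 ± 0.24 (SE), adjusted p = 0.0451). Leaving out replicate 2 or 3 of +NaCl, or 1 or 2 of -NaCl, ended the call (adjusted p between 0.118 and 0.165). Tnfsf11, the osteoclast-inducing ligand RANKL, was set by 1 library, with 5.66, 3.28 and 68.6 counts with +NaCl and 0.88, 2.07 and 3.72 with -NaCl (2.06 ± 0.91 (SE), adjusted p = 0.123). The tools edgeR (3.51, adjusted p = 0.0409) and DESeq2 (3.55, adjusted p = 0.0471) called it higher. The symbol has 2 tested rows, and these values are those of ENSRNOG00000009559.

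Genes that supply phosphate to mineral and genes that supply its inhibitor were both higher with +NaCl. Of the mineralization list, 10 rose and 2 fell of 20 tested (median log2 fold change 0.33), and it shares members with the osteoblast list. Phospho1, the phosphatase that frees phosphate inside matrix vesicles, had 4550.0, 4035 and 4032 counts in +NaCl cells, against 1973, 1868 and 1829 in -NaCl cells (1.15 ± 0.05 (SE), adjusted p = 2.32e-07). Smpd3, the neutral sphingomyelinase needed for bone mineralization in mouse, had 13689.6, 13729.5 and 13616 counts with +NaCl and 6869, 6666 and 5871 with -NaCl (1.08 ± 0.05 (SE), adjusted p = 2.83e-07). Each +NaCl library was about 2-fold above each -NaCl library in these genes. Genes that supply the mineralization inhibitor pyrophosphate rose too. Enpp1, which makes pyrophosphate from ATP, had 1906, 1888 and 1924 counts in +NaCl cells, against 986, 957 and 958 in -NaCl cells (0.98 ± 0.04 (SE), adjusted p = 2.1e-07). Ankh, which exports ATP and pyrophosphate, had 11798, 12352 and 12658 counts with +NaCl and 6951, 6840.4 and 7074 with -NaCl (0.82 ± 0.04 (SE), adjusted p = 2.11e-07). The carbonic anhydrase Car12 (log2 fold change -1.02) and Gas6 (-0.24) fell, and the phosphate transporters Slc20a1 (0.09) and Slc20a2 (-0.11) did not pass.

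**Figure D2:**
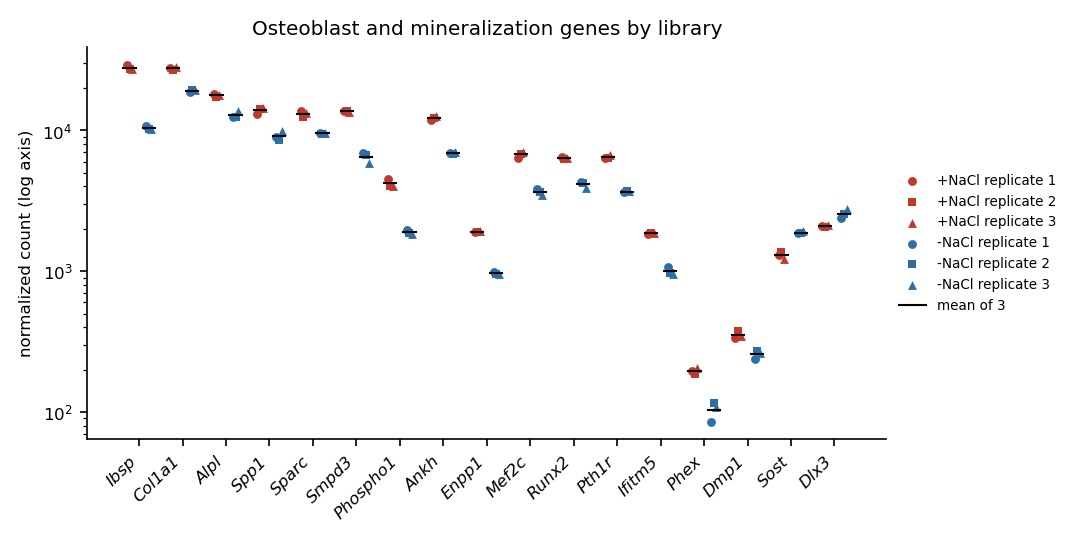
Normalized counts (log axis) of 17 osteoblast and mineralization genes, with 3 +NaCl libraries in red left of 3 -NaCl libraries in blue and black lines at the means of 3. The +NaCl points lie above the -NaCl points for 15 genes and below them for Sost and Dlx3.

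Genes that regulate FGF23 or cut it did not share a direction. Of this list, 8 rose and 4 fell of 19 tested (median log2 fold change 0.21), with 2 fallers without -NaCl replicate 2. Fgf23 itself had 0, 3.28 and 0 counts in +NaCl cells, against 1.76, 10.4 and 13 in -NaCl cells, and did not pass (-2.23 ± 0.81 (SE), adjusted p = 0.066). It passed without +NaCl replicate 2 (adjusted p = 0.0326), without -NaCl replicate 1 (0.0266) and with the replicate number as a block (0.0414). Phex, a protease whose loss raises FGF23 in mouse and human, had 196, 185 and 206 counts in +NaCl cells, against 85.4, 115 and 109 in -NaCl cells (0.93 ± 0.14 (SE), adjusted p = 0.000719). Furin, the protease that cleaves FGF23, had 1970.4, 1791 and 1841 counts with +NaCl and 1147, 1076 and 1083 with -NaCl (0.76 ± 0.05 (SE), adjusted p = 3.09e-06). Dmp1, a matrix protein of osteocytes, had 335, 377 and 346 counts in +NaCl cells and 236, 272 and 261 in -NaCl cells (0.46 ± 0.09 (SE), adjusted p = 0.00364). The groups did not overlap in these genes. Sost, which encodes the Wnt inhibitor sclerostin, had 1310.2, 1358 and 1222 counts with +NaCl and 1862, 1859 and 1919 with -NaCl (-0.54 ± 0.05 (SE), adjusted p = 2.74e-05), and Fam20c, the kinase that phosphorylates FGF23, also fell (log2 fold change -0.35). In the vitamin D receptor axis, 5 rose and 0 fell of 15 tested (median log2 fold change 0.18). The receptor Vdr had 2922, 2596 and 2789 counts in +NaCl cells, against 1944, 1855 and 2004 in -NaCl cells (0.52 ± 0.05 (SE), adjusted p = 4.42e-05). Cyp24a1, the 24-hydroxylase that calcitriol induces, had 10.2, 8.74 and 9.4 counts with +NaCl and 18.5, 14.5 and 9.31 with -NaCl (-0.49 ± 0.38 (SE), adjusted p = 0.405).

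Among transcription factors of the osteoblast lineage and the SOX family, 14 rose and 5 fell of 35 tested (median log2 fold change 0.12). Mef2c, which controls Sost in osteocytes of mouse, had 6418, 6855 and 7066 counts with +NaCl and 3834, 3676 and 3506 with -NaCl (0.88 ± 0.05 (SE), adjusted p = 5.13e-07). Runx2, the master regulator of the lineage, had 6499, 6297 and 6391 counts in +NaCl cells, against 4314, 4201 and 3883 in -NaCl cells (0.63 ± 0.04 (SE), adjusted p = 3.11e-06). Both genes showed no overlap between media. Sp7, which acts after Runx2, rose (0.46 ± 0.04 (SE), adjusted p = 3.3e-05), as did the homeobox gene Dlx5 (0.53 ± 0.04 (SE), adjusted p = 7.41e-06), whereas its relative Dlx3 had 2096, 2062 and 2124 counts with +NaCl and 2396, 2547 and 2752 with -NaCl (-0.29 ± 0.05 (SE), adjusted p = 0.00205). Cartilage markers moved in both directions, as 2 rose and 3 fell of 13 tested (median log2 fold change -0.16). Sox9 had 465, 472 and 502 counts in +NaCl cells and 349, 343 and 394 in -NaCl cells (0.41 ± 0.08 (SE), adjusted p = 0.00323), whereas the cartilage matrix gene Matn3 had 74.7, 85.2 and 71.4 counts with +NaCl and 160.2, 183 and 151 with -NaCl (-1.08 ± 0.14 (SE), adjusted p = 0.000301).

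Collagens rose more often than they fell. Of these genes, 15 rose and 4 fell of 35 tested (median log2 fold change 0.31), or 42.9% higher against 13.3% of all tested genes. Col3a1, a fibrillar collagen of soft tissue, had 544, 536 and 540.2 counts in +NaCl cells, against 184, 199 and 199 in -NaCl cells (1.47 ± 0.08 (SE), adjusted p = 4.94e-07). The microfibrillar chain Col6a3 had 7306, 7188 and 7651 counts with +NaCl and 3468, 3334 and 3421 with -NaCl (1.11 ± 0.04 (SE), adjusted p = 2.75e-08). Col6a1, its partner chain, had 474, 500.4 and 527 counts in +NaCl cells and 192, 198 and 188 in -NaCl cells (1.37 ± 0.08 (SE), adjusted p = 1.07e-06). These 3 genes were at least 2-fold higher in every +NaCl library. The chains that nucleate collagen I fibrils rose as well, Col5a2 with 16313, 15781 and 16875 counts in +NaCl cells and 9298, 9596 and 9865 in -NaCl cells (0.77 ± 0.04 (SE), adjusted p = 3.88e-07), and Col11a1 with a log2 fold change of 0.81. Another chain of collagen V went the other way. Col5a3 had 54.4, 55.7 and 58.3 counts with +NaCl and 163, 179 and 284 with -NaCl (-1.83 ± 0.20 (SE), adjusted p = 7.41e-05). The network chains Col4a5, Col4a4, Col4a6 and Col4a2 did not pass the test.

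Enzymes that modify collagen split, as 12 rose and 4 fell of 29 tested (median log2 fold change 0.07). The crosslinking oxidases Loxl2 (1248, 1179 and 1250.5 counts in +NaCl cells and 727, 735 and 832 in -NaCl cells, 0.68 ± 0.06 (SE), adjusted p = 2.49e-05) and Loxl4 (0.57 ± 0.06 (SE), adjusted p = 4.61e-05) rose. Lox, at a mean count under 50, rose with a log2 fold change of 2.02. P3h4, part of a lysyl hydroxylation complex, had 4269, 3969 and 4026 counts with +NaCl and 2881, 2920.2 and 2726 with -NaCl (0.52 ± 0.04 (SE), adjusted p = 1.25e-05). The prolyl hydroxylase subunits P4ha2 (-0.36) and P4ha3 (-1.13), the lysyl hydroxylase Plod1 (-0.29) and the 3-hydroxylation cofactor Crtap (-0.28) fell. The risers numbered 7 without +NaCl replicate 1.

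Of the matrix glycoproteins and proteoglycans, 16 rose and 10 fell of 53 tested (median log2 fold change 0.07), with 6 fallers without +NaCl replicate 2 or 3 or -NaCl replicate 2. Tnc, tenascin C, had 25712, 25535 and 27891 counts in +NaCl cells, against 13614, 13524 and 14548 in -NaCl cells (0.92 ± 0.05 (SE), adjusted p = 2.83e-07). Tnn, tenascin-W, which is made by osteoblasts, had 1307, 1201 and 1399 counts with +NaCl and 579, 542 and 562 with -NaCl (1.21 ± 0.07 (SE), adjusted p = 5.13e-07). Fibronectin, Fn1, had 22288, 23338 and 24655 counts in +NaCl cells and 13946, 13674 and 15714 in -NaCl cells (0.70 ± 0.06 (SE), adjusted p = 7.78e-06). No +NaCl library fell within the -NaCl range for these genes. The small leucine-rich proteoglycans Lum (1.16), Dcn (0.58) and Bgn (0.54) rose, while Fmod (-0.45) fell. Genes of elastic fibres fell, namely Eln (log2 fold change -1.09), Fbln5 (-0.76) and Fbn1 (-0.44), with Fbn2 rising (0.27). These last 2 groups were picked after their values were seen.

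Of the glycosaminoglycan synthesis genes, 16 rose and 2 fell of 45 tested (median log2 fold change 0.16), with 1 faller without +NaCl replicate 3 or -NaCl replicate 1. Chsy1, a chondroitin synthase, had 2815, 2958 and 2897 counts in +NaCl cells, against 1684, 1678 and 1561 in -NaCl cells (0.82 ± 0.05 (SE), adjusted p = 7.22e-07). Chst12, a chondroitin 4-O-sulfotransferase, had 792, 763 and 738 counts with +NaCl and 350.3, 343 and 301 with -NaCl (1.21 ± 0.08 (SE), adjusted p = 1.65e-06). Extl1, an exostosin-like glycosyltransferase, had 476, 428 and 501 counts in +NaCl cells, against 149.6, 195 and 143 in -NaCl cells (1.53 ± 0.12 (SE), adjusted p = 8.26e-06). Papss2, which makes the sulfate donor, had 1686, 1727 and 1673 counts with +NaCl and 1208, 1168 and 1184 with -NaCl (0.51 ± 0.04 (SE), adjusted p = 1.4e-05). For each of the 4 the media did not overlap. Chst3, a chondroitin 6-O-sulfotransferase, was the largest fall (-1.15). Ugdh, which makes the glucuronate that chondroitin, heparan and hyaluronan need, fell as well, with 1408, 1458 and 1389 counts in +NaCl cells and 2030.4, 1996 and 2152 in -NaCl cells (-0.54 ± 0.05 (SE), adjusted p = 1.57e-05). Its list, the hyaluronan genes, had 3 risers and 5 fallers of 20.

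Of the matrix proteases and their inhibitors, 16 rose and 3 fell of 35 tested (median log2 fold change 0.22). The collagenase Mmp13, a product of mature osteoblasts and hypertrophic chondrocytes, had 324, 331 and 400.2 counts in +NaCl cells, against 163, 155 and 170.3 in -NaCl cells (1.10 ± 0.11 (SE), adjusted p = 3.41e-05). Adamts12 had 1250.2, 1239 and 1305 counts with +NaCl and 787, 770.2 and 741 with -NaCl (0.72 ± 0.05 (SE), adjusted p = 3.49e-06). Serpine2, which inhibits thrombin and plasminogen activators, had 5109, 5181 and 5418 counts in +NaCl cells and 3148, 3010.3 and 3259 in -NaCl cells (0.74 ± 0.04 (SE), adjusted p = 9.07e-07). The groups were apart in each. Among integrins, the alpha-9 chain Itga9, a receptor for tenascin C, had 109.8, 138 and 152 counts with +NaCl and 54.6, 58 and 59.6 with -NaCl (1.19 ± 0.17 (SE), adjusted p = 0.000471), while the laminin-binding alpha-6 chain Itga6 had 2599, 2884 and 2657 counts with +NaCl and 3563, 3529.9 and 3748 with -NaCl (-0.41 ± 0.05 (SE), adjusted p = 0.00012).

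In the BMP and TGF-beta list, 16 rose and 4 fell of 49 tested (median log2 fold change 0.16), with 2 fallers when replicate 2 or 3 of either medium was left out. The ligands Bmp2, Bmp4 and Bmp5, which induce bone, were higher with +NaCl. Bmp4 had 1904, 1635 and 1825 counts in +NaCl cells, against 1003, 954 and 953 in -NaCl cells (0.88 ± 0.06 (SE), adjusted p = 3.09e-06). Bmp2 had 721, 794 and 787 counts with +NaCl and 461, 433 and 416 with -NaCl (0.81 ± 0.07 (SE), adjusted p = 1.23e-05). Bmp5 had 919.5, 916 and 894 counts in +NaCl cells and 443, 396 and 309.9 in -NaCl cells (1.26 ± 0.11 (SE), adjusted p = 1.38e-05). The BMP antagonist Grem1 had 436, 449 and 476 counts with +NaCl and 169.9, 169 and 197 with -NaCl (1.34 ± 0.09 (SE), adjusted p = 3.11e-06), the largest ratio of the 4, and Nog, Bambi, Smad6 and Smad7, all inhibitors of the pathway, also rose (log2 fold changes between 0.27 and 0.50). Of the target genes, Id2 rose (0.46), Id1 fell (-0.34), and Id3 (0.05) and Id4 (0.02) did not pass.

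Among Wnt genes, 12 rose and 8 fell of 48 tested (median log2 fold change 0.05). Secreted inhibitors rose and fell. Notum, a deacylase that inactivates Wnt proteins, had 749.6, 626 and 779.8 counts in +NaCl cells, against 299, 332 and 364 in -NaCl cells (1.11 ± 0.10 (SE), adjusted p = 1.81e-05). Wif1, which binds Wnt proteins, had 7539.5, 7407 and 7513 counts with +NaCl and 4809.7, 4791 and 4995 with -NaCl (0.62 ± 0.04 (SE), adjusted p = 7.79e-07). In contrast to Sost, its receptor Lrp4 was higher, at 3224, 3122 and 3315 counts in +NaCl cells and 1967, 1862 and 1869 in -NaCl cells (0.76 ± 0.04 (SE), adjusted p = 7.79e-07). The agonist Rspo3 (0.66 ± 0.05 (SE), adjusted p = 7.61e-06) and the receptor Fzd6 (0.83 ± 0.06 (SE), adjusted p = 3.09e-06) rose. Of the canonical target and effector genes, Axin2 rose (0.31), and Lef1 (-0.38), Tcf7 (-0.14) and Nkd2 (-0.83) fell.

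In the PTH, hedgehog and notch list, 6 rose and 8 fell of 28 tested (median log2 fold change -0.04), with 5 fallers without +NaCl replicate 2. The parathyroid hormone receptor Pth1r had 6356, 6350.1 and 6658 counts in +NaCl cells, against 3632, 3711 and 3697 in -NaCl cells (0.81 ± 0.04 (SE), adjusted p = 2.1e-07). The hedgehog effector Gli1 had 6999, 7069 and 7305 counts with +NaCl and 8961, 8840.4 and 9065 with -NaCl (-0.33 ± 0.04 (SE), adjusted p = 5.99e-05), and the notch target Hes1 had 589, 632 and 606 counts with +NaCl and 852, 852 and 910.2 with -NaCl (-0.52 ± 0.06 (SE), adjusted p = 0.000103). Smo (-0.36), Gli2 (-0.12) and Notch1 (-0.66) fell with them. Of the insulin-like growth factor genes, 5 rose and 2 fell of 19 tested (median log2 fold change -0.06). Igfbp4, a binding protein that restrains IGF action, went against Igfbp5, at 5069.8, 4792 and 4866 counts in +NaCl cells and 6831, 6618 and 6772 in -NaCl cells (-0.46 ± 0.04 (SE), adjusted p = 9.19e-06), and the adaptor Irs1 rose (0.55 ± 0.06 (SE), adjusted p = 7.19e-05).

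Semaphorins, plexins and neuropilins, guidance cues that also act between bone cells, moved in both directions. Of them, 8 rose and 7 fell of 29 tested (median log2 fold change 0.07), with 4 fallers without +NaCl or -NaCl replicate 2 and 3 without +NaCl replicate 3. Nrp2, a co-receptor for class 3 semaphorins and VEGF, had 25226, 25197 and 25343 counts in +NaCl cells, against 11802, 11759 and 11512 in -NaCl cells (1.11 ± 0.03 (SE), adjusted p = 9.07e-09). Replicates differed by under 3% within each medium. Sema3d (ENSRNOG00000007202, chromosome 4, 19224310 to 19413484, minus strand, in the table's coordinates) had 1661, 1757 and 1825 counts with +NaCl and 533, 511 and 498 with -NaCl (1.76 ± 0.06 (SE), adjusted p = 1.7e-08). Sema5a had 2346, 2499.8 and 2444 counts in +NaCl cells and 1066, 933 and 1006 in -NaCl cells (1.28 ± 0.06 (SE), adjusted p = 1.77e-07). The groups lay far apart in all 3. The fallers were Sema3f, Sema3g, Sema4a, Sema4b, Sema4d, Plxnc1 and Plxnd1 (log2 fold changes between -0.75 and -0.20), so the class 4 members that passed were all lower. Of the osteoclast coupling factors, 3 rose and 2 fell of 17 tested (median log2 fold change 0.07), with 0 fallers without +NaCl replicate 1 or 3 or when -NaCl replicate 1 was left out and 1 when -NaCl replicate 3 was. The RANKL decoy Tnfrsf11b, osteoprotegerin, had 239, 265 and 242 counts with +NaCl and 136, 142 and 134 with -NaCl (0.85 ± 0.10 (SE), adjusted p = 0.000165), and the macrophage growth factor Csf1 had 519, 465 and 433 counts with +NaCl and 320.4, 330.2 and 323 with -NaCl (0.54 ± 0.08 (SE), adjusted p = 0.000777). The cytokine Il11 fell, with 12.5, 21.9 and 15 counts in +NaCl cells and 39.6, 33.1 and 35.4 in -NaCl cells (-1.12 ± 0.30 (SE), adjusted p = 0.018).

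Immediate early genes and MAP kinase feedback genes split between the 2 directions, as 14 rose and 7 fell of 40 tested (median log2 fold change 0.04). Klf2, a Kruppel-like factor, had 862, 848 and 827 counts in +NaCl cells, against 330.0, 366 and 378 in -NaCl cells (1.24 ± 0.07 (SE), adjusted p = 7.22e-07). Klf4 had 3269, 3214 and 3148 counts with +NaCl and 1793, 1953 and 1858 with -NaCl (0.78 ± 0.04 (SE), adjusted p = 7.79e-07). Ier3 had 268, 296 and 343 counts in +NaCl cells and 128, 117 and 133 in -NaCl cells (1.25 ± 0.12 (SE), adjusted p = 2.99e-05). Each was higher in all +NaCl libraries, and Fos (0.66), Jun (0.46) and Nr4a1 (0.51) rose as well. The MAP kinase phosphatase Dusp1 rose (0.81 ± 0.08 (SE), adjusted p = 4.16e-05), while its relatives Dusp6 (-0.75), Dusp4 (-0.50) and Dusp7 (-0.32) fell, as did Egr1 (-0.98), Etv4 (-0.87), Etv5 (-0.58) and Atf3 (-1.04), which make up the 7 fallers. The risers numbered 8 without +NaCl replicate 3 or -NaCl replicate 1 and 9 without +NaCl replicate 2. Of the NF-kB genes, 5 rose and 4 fell of 25 tested (median log2 fold change -0.06), with 2 fallers in each leave-out other than that of -NaCl replicate 2. The inhibitor Nfkbia had 1242, 1246 and 1207 counts with +NaCl and 751, 761 and 735 with -NaCl (0.72 ± 0.05 (SE), adjusted p = 3.09e-06), while the target Tnfaip2 had 67.9, 108 and 126 counts with +NaCl and 219, 217 and 435 with -NaCl (-1.48 ± 0.28 (SE), adjusted p = 0.00258). In the PI3K, AKT and FOXO list, 12 rose and 1 fell of 28 tested (median log2 fold change 0.16), with the S6 kinase gene Rps6kb1 at 2164, 2175 and 2331 counts in +NaCl cells and 1567, 1387 and 1401 in -NaCl cells (0.62 ± 0.06 (SE), adjusted p = 2.39e-05).

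The lowest median of the 54 lists was that of the amino acid response genes, which the transcription factor ATF4 activates when amino acids are short or the kinases of the integrated stress response are active. Of the ATF4 targets, 1 rose and 19 fell of 27 tested (median log2 fold change -0.84), or 70.4% lower against 12.7% of all tested genes. Trib3 (ENSRNOG00000007319, chromosome 3, 147813473 to 147819571, minus strand), a pseudokinase that feeds back on ATF4, had 80.4, 212 and 298 counts in +NaCl cells, against 634, 619 and 1937 in -NaCl cells (-2.40 ± 0.48 (SE), adjusted p = 0.00374). Chac1, which degrades glutathione, had 67.9, 208 and 222 counts with +NaCl and 366, 435 and 779.9 with -NaCl (-1.76 ± 0.40 (SE), adjusted p = 0.00735). Ddit3, which encodes CHOP and whose end overlaps Mars on the other strand by 72 bases, had 840.2, 1443 and 1412 counts in +NaCl cells and 2231, 2611 and 6241 in -NaCl cells (-1.47 ± 0.32 (SE), adjusted p = 0.00636). All +NaCl libraries were below all -NaCl libraries in these genes, but -NaCl replicate 3 was far above the other -NaCl libraries and +NaCl replicate 1 below the other +NaCl libraries. In limma without the mean-variance trend, the calls of Trib3 (adjusted p = 0.0795), Chac1 (0.102) and Ddit3 (0.0999) were lost. The asparagine synthetase Asns had 592, 968 and 973 counts with +NaCl and 1820.0, 1935 and 3479.7 with -NaCl (-1.48 ± 0.24 (SE), adjusted p = 0.000916). Atf5 had 588, 656 and 619 counts in +NaCl cells and 1381, 1458 and 2265 in -NaCl cells (-1.42 ± 0.15 (SE), adjusted p = 5.32e-05). Atf4 itself had 5041, 5816 and 6315 counts with +NaCl and 6615, 7025 and 10800.2 with -NaCl (-0.48 ± 0.15 (SE), adjusted p = 0.0375). Its call was lost when any 1 of the +NaCl libraries was left out (adjusted p between 0.0584 and 0.145). DESeq2 (adjusted p = 0.118) and limma without the trend (adjusted p = 0.203) did not call it either. Nupr1 was the member that rose (1.61), and that call was lost in 5 of the 6 leave-outs.

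The promoters of 3 fallers are shown, those of Trib3 and Chac1 from the list and that of Inhbe, which is not in it. They were chosen because each holds a match to the core of the amino acid response element, TGATGNAAN, which ATF4 and its C/EBP partners bind. They are RefSeq GRCr8 windows of the same kind as above, for Trib3 (chr3:161275484-161275783, minus strand), Chac1 (chr3:126795881-126796180, plus strand) and Inhbe (chr7:65064470-65064769, minus strand), and the capitals mark the match, here on the opposite strand.
Trib3: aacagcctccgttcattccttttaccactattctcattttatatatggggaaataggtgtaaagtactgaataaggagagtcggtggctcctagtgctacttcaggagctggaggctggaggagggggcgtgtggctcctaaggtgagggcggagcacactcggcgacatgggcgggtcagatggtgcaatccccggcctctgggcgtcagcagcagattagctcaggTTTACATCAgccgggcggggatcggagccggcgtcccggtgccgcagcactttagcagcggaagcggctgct
Chac1: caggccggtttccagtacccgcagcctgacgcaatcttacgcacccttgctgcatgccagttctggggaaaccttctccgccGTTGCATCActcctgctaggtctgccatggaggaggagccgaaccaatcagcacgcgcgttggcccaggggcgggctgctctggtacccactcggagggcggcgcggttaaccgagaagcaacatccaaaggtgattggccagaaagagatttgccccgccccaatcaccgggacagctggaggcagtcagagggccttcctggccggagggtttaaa
Inhbe: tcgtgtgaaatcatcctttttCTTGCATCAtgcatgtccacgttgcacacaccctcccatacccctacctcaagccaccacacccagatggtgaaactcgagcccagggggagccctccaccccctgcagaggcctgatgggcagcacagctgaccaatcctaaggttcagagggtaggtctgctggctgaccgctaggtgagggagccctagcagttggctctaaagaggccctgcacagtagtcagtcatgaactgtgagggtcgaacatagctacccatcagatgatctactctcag
Inhbe, an activin subunit known as a stress-induced hepatokine in mouse and human, had 63.4, 123 and 96.8 counts in +NaCl cells, against 202, 240.2 and 539 in -NaCl cells (-1.69 ± 0.33 (SE), adjusted p = 0.00326). The core was in 5.47% (7 of 128) of the windows of genes at least 2-fold lower with +NaCl, in 3.8% (6 of 158) of those at least 2-fold higher, in 2.04% (218 of 10677) of all tested genes and in 3.8% (1044 of 27457) of all windows. These shares were not tested.

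Amino acid transporters and serine synthesis enzymes fell with them. The glutamine transporter Slc1a5 had 351, 448 and 499 counts in +NaCl cells, against 930.3, 1030.0 and 1467 in -NaCl cells (-1.39 ± 0.16 (SE), adjusted p = 0.000114). Slc7a5, the large neutral amino acid transporter LAT1, had 1271, 1635 and 1613 counts with +NaCl and 2370.1, 2650.1 and 4254 with -NaCl (-1.0 ± 0.18 (SE), adjusted p = 0.00186). These moved opposite to the system A transporters Slc38a4 and Slc38a2 (0.70 ± 0.06 (SE), adjusted p = 1.99e-05), which rose. Slc38a1, also of system A, fell, as stated above. Of the serine and folate one-carbon genes, 2 rose and 11 fell of 22 tested (median log2 fold change -0.33). All 3 enzymes of serine synthesis from 3-phosphoglycerate fell. Phgdh had 5535, 5971 and 5884 counts in +NaCl cells, against 9595, 10038 and 12746 in -NaCl cells (-0.89 ± 0.09 (SE), adjusted p = 3.35e-05). Psat1 had 1180.0, 1583 and 1608 counts with +NaCl and 2701, 3062 and 4245 with -NaCl (-1.18 ± 0.15 (SE), adjusted p = 0.000235). Psph had 299, 369 and 339 counts in +NaCl cells and 581, 695 and 1412 in -NaCl cells (-1.31 ± 0.25 (SE), adjusted p = 0.00298). The mitochondrial enzyme Mthfd1l had 806, 847 and 799 counts with +NaCl and 1414, 1381 and 1879 with -NaCl (-0.92 ± 0.10 (SE), adjusted p = 7.02e-05), and its cytosolic counterpart Mthfd1 fell less (-0.23). Of the tRNA synthetase list, which holds the mitochondrial Fars2 beside cytosolic enzymes, 1 rose and 13 fell of 21 tested (median log2 fold change -0.31). Kars had 4624, 4492 and 4551 counts in +NaCl cells and 5488, 5575 and 5645 in -NaCl cells (-0.29 ± 0.04 (SE), adjusted p = 0.000162), and Yars had 1680.5, 2054 and 2173 counts in +NaCl cells and 2744, 2843 and 4479 in -NaCl cells (-0.74 ± 0.16 (SE), adjusted p = 0.00558).

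Of the list of endoplasmic reticulum chaperones and unfolded protein response genes, 0 rose and 10 fell of 29 tested (median log2 fold change -0.13). It is called the chaperone list below, though it also holds sensors and genes of degradation and translocation. Hspa5, the chaperone BiP, had 9810.0, 11495 and 12350.0 counts in +NaCl cells, against 15124, 16601 and 31731 in -NaCl cells (-0.84 ± 0.21 (SE), adjusted p = 0.0146). Herpud1, a component of degradation at this membrane, had 734, 1181 and 1293 counts with +NaCl and 1638, 1800.2 and 3619 with -NaCl (-1.08 ± 0.27 (SE), adjusted p = 0.0128). Xbp1 had 818, 972 and 935 counts in +NaCl cells and 1195, 1305 and 1856 in -NaCl cells (-0.65 ± 0.13 (SE), adjusted p = 0.00439). Without +NaCl replicate 1 the calls of Hspa5 (adjusted p = 0.068) and Herpud1 (0.0602) were lost. The sensors Ern1 (0.01), Atf6 (-0.05) and Eif2ak3 (0.22) did not pass. Without +NaCl replicate 1 or 2, 4 members of this list were called lower, and without +NaCl replicate 3, 6 were.

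The libraries behind these lists did not weigh alike. Replicate 3 of -NaCl was the highest of the 6 libraries in 24 of 27 ATF4 targets, 25 of 29 members of the chaperone list and 15 of 21 tRNA synthetases. Over all 17108 tested genes it was the highest in 3243. Its count was at least 1.5 times the mean of the other -NaCl libraries in 19 of 24 ATF4 targets with a mean count of 100 or more, against 1.02% of all such genes. Replicate 1 of +NaCl was the lowest library in 23 of 27 ATF4 targets. Without -NaCl replicate 3, 19 ATF4 targets, 12 tRNA synthetases, 12 serine and folate genes and 11 members of the chaperone list were called lower. Without that library and +NaCl replicate 1 together, 20, 12, 11 and 11 were. The median log2 fold change of the ATF4 targets was -0.59 without -NaCl replicate 3 and -0.53 without both. That of the chaperone list was -0.05 and -0.03. What set these 2 libraries apart was not tested.

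**Figure D3:**
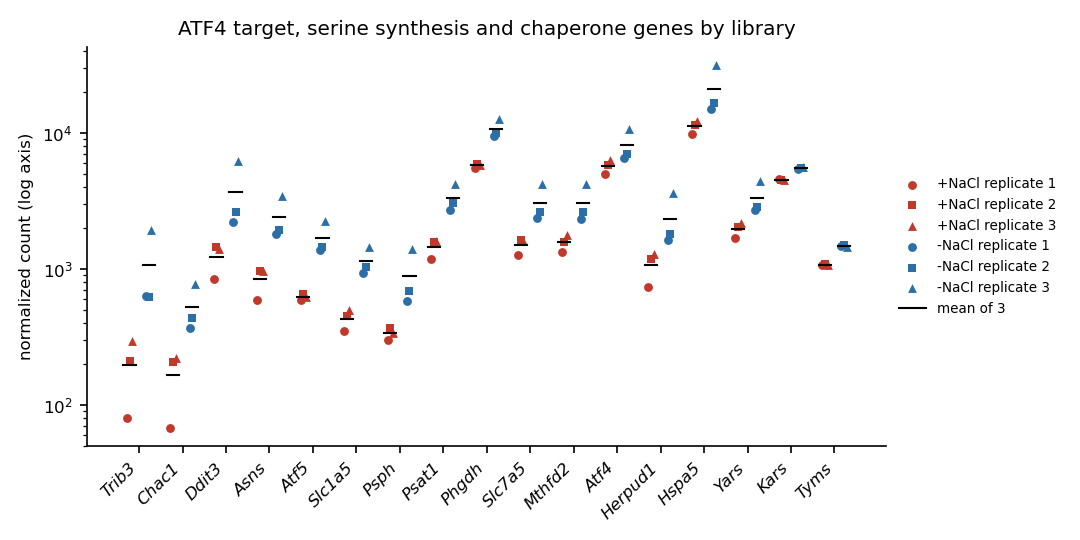
Normalized counts (log axis) of 17 genes of the ATF4, serine, tRNA synthetase and chaperone lists, with 3 +NaCl libraries in red left of 3 -NaCl libraries in blue and black lines at the means of 3. Replicate 3 of -NaCl (blue triangle) stands well above the other -NaCl points in all but Kars and Tyms, and the +NaCl points stay below all -NaCl points.

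Genes of DNA replication were lower with +NaCl in most of the list. Of them, 0 rose and 41 fell of 50 tested (median log2 fold change -0.30), and no fold change was above 0. Tk1, the thymidine kinase of S phase, had 4847, 4719 and 4547 counts in +NaCl cells, against 7516, 8017 and 7411 in -NaCl cells (-0.70 ± 0.04 (SE), adjusted p = 1.24e-06). Uhrf1, which carries DNA methylation through replication, had 1634, 1612 and 1681 counts with +NaCl and 2477, 2441 and 2514 with -NaCl (-0.59 ± 0.04 (SE), adjusted p = 3.11e-06). Mcm6, of the replicative helicase, had 9815, 9628 and 9836 counts in +NaCl cells and 12319, 12377 and 12747 in -NaCl cells (-0.35 ± 0.03 (SE), adjusted p = 2.95e-05). The media did not overlap, and the sizes were modest, from -0.70 to 0.00 over the list. The sliding clamp Pcna had 3029, 3006 and 2835 counts with +NaCl and 3838, 4041 and 3629.5 with -NaCl (-0.38 ± 0.05 (SE), adjusted p = 0.000239). Between 33 and 39 members were called lower when a library was left out.

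Of the mitosis genes, 1 rose and 37 fell of 56 tested (median log2 fold change -0.22). The kinesin Kif15 had 1496, 1500.1 and 1489 counts in +NaCl cells, against 2234, 2205 and 2117 in -NaCl cells (-0.55 ± 0.04 (SE), adjusted p = 6.72e-06). Ube2c, which ubiquitinates cyclins for the anaphase-promoting complex, had 2943, 3076 and 2799 counts with +NaCl and 4055, 4145 and 3970.2 with -NaCl (-0.47 ± 0.04 (SE), adjusted p = 2.88e-05). Aurkb had 2229.7, 2158 and 2178 counts in +NaCl cells and 2949, 2931 and 2865 in -NaCl cells (-0.41 ± 0.04 (SE), adjusted p = 2.89e-05). All were lower in each +NaCl library. The proliferation marker Mki67 did not pass, with 5265, 5221 and 5173 counts with +NaCl and 5842, 5699 and 5255 with -NaCl (-0.10 ± 0.04 (SE), adjusted p = 0.124), but it was called lower without -NaCl replicate 3 (-0.14, adjusted p = 0.01). Plk1 (-0.09) and Cdc20 (-0.05) did not pass.

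In the G1 list, 5 rose and 16 fell of 29 tested (median log2 fold change -0.23). Ccnd1 had 1419, 1494 and 1460.0 counts in +NaCl cells, against 2123, 2302 and 2419 in -NaCl cells (-0.64 ± 0.05 (SE), adjusted p = 1.07e-05). Ccne2 had 972, 1036 and 1086 counts with +NaCl and 1592, 1611 and 1383 with -NaCl (-0.57 ± 0.07 (SE), adjusted p = 0.000144). Cdkn2b, the CDK4 and CDK6 inhibitor p15, had 863, 957 and 1002 counts in +NaCl cells and 411, 459.6 and 466 in -NaCl cells (1.08 ± 0.08 (SE), adjusted p = 3.13e-06). Each +NaCl library had at least 1.8 times the Cdkn2b count of any -NaCl library. Cdkn1b, p27, rose (0.26 ± 0.05 (SE), adjusted p = 0.00183), and so did the pocket proteins Rb1 (0.60) and Rbl2 (0.42), whereas Rbl1 fell (-0.41). Cdkn1a, p21, did not pass, with 599, 606 and 622 counts with +NaCl and 524, 500.0 and 638 with -NaCl (0.14 ± 0.09 (SE), adjusted p = 0.269), but it was called higher without -NaCl replicate 3 (0.25, adjusted p = 0.0186), and the p53 list was split, as 3 rose and 6 fell of 20 tested (median log2 fold change -0.08). It had 6 risers without -NaCl replicate 3 and 3 fallers without +NaCl replicate 3 or -NaCl replicate 2.

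**Figure D4:**
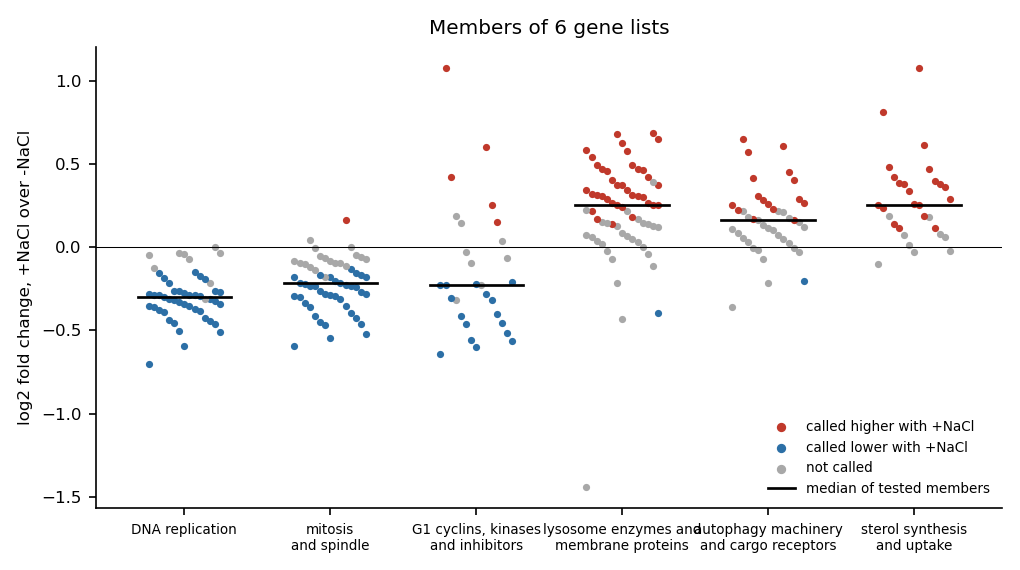
Log2 fold change of +NaCl over -NaCl (y axis) for each tested member of 6 gene lists, red where called higher, blue where called lower and grey where not called, with black lines at the medians. The replication, mitosis and G1 medians lie below 0 (-0.30, -0.22 and -0.23) and the lysosome, autophagy and sterol medians above it (0.25, 0.16 and 0.25).

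Genes of the lysosome rose together. Of them, 37 rose and 1 fell of 65 tested (median log2 fold change 0.25), or 56.9% higher against 13.3% of all tested genes. Ctsd, the aspartic protease cathepsin D, had 3577, 3359 and 3520.4 counts in +NaCl cells, against 2346, 2242 and 2378 in -NaCl cells (0.59 ± 0.04 (SE), adjusted p = 4.21e-06). The protease Tpp1 had 2585, 2593 and 2685 counts in +NaCl cells and 1723, 1686 and 1859 in -NaCl cells (0.58 ± 0.05 (SE), adjusted p = 1e-05). No library of either medium crossed into the other's range. The sialidase Neu1 (0.68 ± 0.08 (SE), adjusted p = 0.000184), the acid sphingomyelinase Smpd1 (0.54 ± 0.05 (SE), adjusted p = 4.13e-05) and the membrane glycoprotein Lamp1 (0.25 ± 0.04 (SE), adjusted p = 0.000873) rose, and so did 10 of the 14 subunits and accessory proteins of the proton pump. Tfe3, a transcription factor of lysosomal genes, rose (0.34), while its relatives Tfeb (0.07) and Mitf (-0.22) did not pass, and the protease Ctsz was the faller (-0.39). Of the autophagy genes, 16 rose and 1 fell of 42 tested (median log2 fold change 0.16). Gabarapl2, which binds the growing autophagosome, had 1696, 1810.4 and 1893 counts with +NaCl and 1158, 1165 and 1224 with -NaCl (0.61 ± 0.05 (SE), adjusted p = 1.57e-05), and Uvrag had 1064, 1206 and 1125 counts with +NaCl and 756, 705 and 701 with -NaCl (0.65 ± 0.06 (SE), adjusted p = 3.01e-05).

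Most sterol synthesis and uptake genes rose, as 21 rose and 0 fell of 30 tested (median log2 fold change 0.25), with 1 faller without -NaCl replicate 3. Mylip, a ubiquitin ligase that limits sterol uptake, had 704, 632 and 677 counts with +NaCl and 312, 301 and 342 with -NaCl (1.07 ± 0.08 (SE), adjusted p = 3.44e-06). Lss, the lanosterol synthase, had 2132, 2195 and 2280.2 counts in +NaCl cells and 1350.1, 1417 and 1559.8 in -NaCl cells (0.61 ± 0.06 (SE), adjusted p = 2.66e-05). The groups did not overlap in these genes. Insig2, which holds back the activation of sterol genes, had 2016, 1928 and 1927 counts with +NaCl and 1169.6, 1109 and 1073 with -NaCl (0.81 ± 0.05 (SE), adjusted p = 1.29e-06). The synthase Hmgcs1 (0.06) did not pass. The list held between 14 and 21 risers when a library was left out. Of the fatty acid genes, 8 rose and 6 fell of 27 tested (median log2 fold change 0.03), with Acss2, which makes acetyl-CoA from acetate, at 1033, 949 and 1031 counts in +NaCl cells and 468, 465 and 470.0 in -NaCl cells (1.10 ± 0.06 (SE), adjusted p = 5.13e-07).

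Genes of ribosome assembly fell in part, as 0 rose and 19 fell of 49 tested (median log2 fold change -0.11). The nucleolar proteins Npm1 (25273, 26246 and 25848 counts in +NaCl cells and 33306, 33847 and 36699 in -NaCl cells, -0.42 ± 0.04 (SE), adjusted p = 4.11e-05) and Ncl (-0.28 ± 0.04 (SE), adjusted p = 0.000274) were lower in every +NaCl library. Of the ribosomal protein genes, which have many near-identical pseudogenes that counting can confuse, 0 rose and 15 fell of 68 tested (median log2 fold change -0.10), with 6 fallers without +NaCl replicate 3 and 7 when -NaCl replicate 2 was left out. Of the heat shock genes, 4 rose and 5 fell of 35 tested (median log2 fold change 0.06), with 2 risers without +NaCl replicate 1 or 3, and the abundant Hsp90ab1 had 54256, 53910.5 and 54034 counts in +NaCl cells and 67302, 68842 and 69985 in -NaCl cells (-0.35 ± 0.03 (SE), adjusted p = 4.12e-05). Of the glycolysis and hypoxia genes, 9 rose and 10 fell of 37 tested (median log2 fold change -0.04). Hexokinases went apart, Hk1 rising with a log2 fold change of 0.60 and Hk2 falling, with 1833, 1863 and 1819.8 counts in +NaCl cells and 2549, 2619 and 2595 in -NaCl cells (-0.49 ± 0.04 (SE), adjusted p = 8.39e-06). The Myc antagonist Mxi1 rose (0.72 ± 0.06 (SE), adjusted p = 1.24e-05), and Vegfa fell (-0.63).

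Metal-binding and antioxidant genes fell in part. Of this list, 1 rose and 7 fell of 28 tested (median log2 fold change -0.11). The metallothionein Mt1 had 749, 929.8 and 863 counts in +NaCl cells, against 1680.1, 1895 and 1801 in -NaCl cells (-1.08 ± 0.08 (SE), adjusted p = 3.35e-06). Mt2A had 172, 205 and 201 counts with +NaCl and 451, 513 and 438 with -NaCl (-1.27 ± 0.10 (SE), adjusted p = 7.41e-06). The highest +NaCl library was below 0.6 of the lowest -NaCl library in both. Of the iron genes, 5 rose and 2 fell of 20 tested (median log2 fold change 0.08), with 1 faller without +NaCl replicate 3 or -NaCl replicate 2. In this iron list, the zinc and manganese importer Slc39a8 had 715, 663 and 748 counts in +NaCl cells and 278, 259.8 and 273 in -NaCl cells (1.39 ± 0.07 (SE), adjusted p = 4.94e-07). Of the clock genes, 5 rose and 2 fell of 20 tested (median log2 fold change 0.06), none of the fallers holding without +NaCl replicate 1 or 3, with Per1 at 755, 716 and 741 counts with +NaCl and 559, 539 and 589 with -NaCl (0.39 ± 0.06 (SE), adjusted p = 0.00087). The calcium-binding S100a6 had 6609, 5851 and 5654 counts in +NaCl cells and 3140.2, 3149 and 2925 in -NaCl cells (0.97 ± 0.06 (SE), adjusted p = 1.07e-06), and 4 of 10 genes of its family rose. Of the cytoskeletal genes, 3 rose and 5 fell of 36 tested (median log2 fold change -0.06), with 1 riser without -NaCl replicate 1 and 2 fallers without -NaCl replicate 2, with the YAP targets Ctgf (0.03) and Cyr61 (0.07) not past the test and non-muscle myosin Myh10 at 3905, 3883 and 3861 counts in +NaCl cells and 5552, 5538 and 5638 in -NaCl cells (-0.52 ± 0.03 (SE), adjusted p = 2.37e-06).

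**Figure D5:**
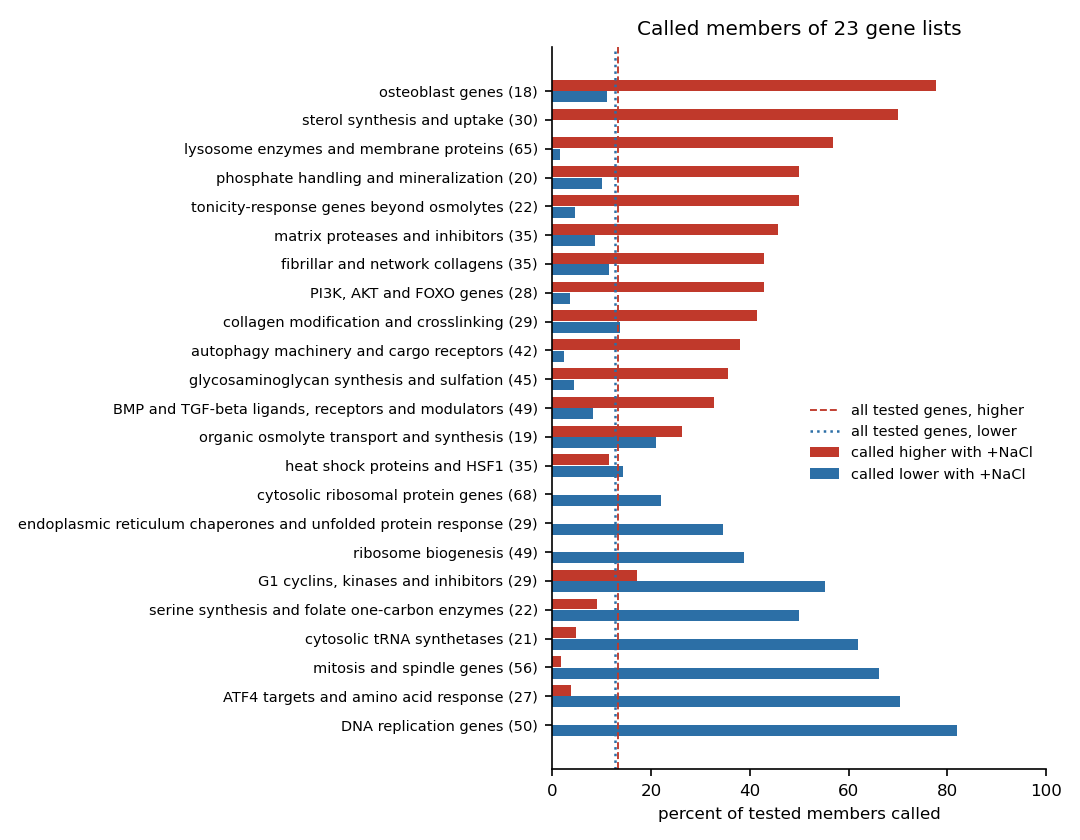
Percent of tested members called higher (red) and lower (blue) with +NaCl in 23 of the 54 gene lists, the number tested in parentheses, with dashed and dotted lines at the shares of all tested genes (13.3% and 12.7%). Osteoblast genes have the longest red bar (77.8%) and DNA replication genes the longest blue bar (82.0%).

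Some of the largest changes belonged to no list. Adgrv1, an adhesion receptor, had 197, 185 and 170.1 counts in +NaCl cells, against 9.68, 4.14 and 13 in -NaCl cells (4.33 ± 0.34 (SE), adjusted p = 6.82e-06). Pkhd1l1, a membrane protein related to fibrocystin, had 126, 129 and 133 counts with +NaCl and 15, 12.4 and 12.1 with -NaCl (3.21 ± 0.22 (SE), adjusted p = 2.54e-06). Both were higher in every +NaCl library. Gabre, a GABA-A receptor subunit whose gene holds Mir224, had 382, 349 and 358 counts in +NaCl cells, against 89.8, 84.9 and 79.1 in -NaCl cells (2.09 ± 0.11 (SE), adjusted p = 4.63e-07). Il15, a cytokine of lymphocytes, had 152, 128 and 99.6 counts with +NaCl and 36.1, 21.7 and 33.5 with -NaCl (2.03 ± 0.24 (SE), adjusted p = 0.000145). Enpp2, autotaxin, which makes lysophosphatidic acid, had 4519, 4548 and 4534 counts in +NaCl cells and 1897, 1719 and 2051 in -NaCl cells (1.27 ± 0.06 (SE), adjusted p = 2.1e-07). The translation inhibitor and tumour suppressor Pdcd4 had 4722, 4792 and 4664 counts in +NaCl cells, against 2061, 2136 and 2221 in -NaCl cells (1.14 ± 0.04 (SE), adjusted p = 3.47e-08). Among the fallers, the actin-binding protein Lsp1 had 2278, 2314 and 2242 counts with +NaCl and 4312, 4409.9 and 4887 with -NaCl (-0.99 ± 0.05 (SE), adjusted p = 3.61e-07). Fam132b, the hormone erythroferrone, had 55.5, 78.7 and 63.9 counts in +NaCl cells and 166, 190.5 and 273 in -NaCl cells (-1.64 ± 0.20 (SE), adjusted p = 0.000165). The AP-1 family factor Batf3 had 31.7, 22.9 and 30.1 counts with +NaCl and 88, 93.2 and 74.5 with -NaCl (-1.57 ± 0.22 (SE), adjusted p = 0.000411). All of these had separate ranges in the 2 media. Gfra3, Slc16a14, Svop and Ifi27l2b fell too (log2 fold changes between -2.20 and -1.81), with -NaCl replicate 3 at more than 2 times the other -NaCl libraries in each. Ncbp2 and Pak2, among the largest by size, varied widely within a medium. Ncbp2 had 31.7, 25.1 and 22.5 counts in +NaCl cells and 28.2, 455 and 242 in -NaCl cells (-2.44 ± 0.75 (SE), adjusted p = 0.0348), with no call in 5 of the 6 leave-outs. A gene listed as Pak2 (ENSRNOG00000048597) had 163, 67.7 and 131 counts with +NaCl and 75.7, 13.5 and 23.3 with -NaCl (1.93 ± 0.52 (SE), adjusted p = 0.0189), with no call in 3 of them.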

How the data were processed

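Per the labels and the methods, poly-A RNA of UMR-106 cells was made into libraries with a NEBNext Ultra kit, and the authors deposited 1 table per genotype. The deposited values are normalized read counts, a signal per gene in which each library's whole reads were divided by 1 factor. The aligner, the counting tool and the strand setting are not given in the sources used here, so reads of overlapping genes cannot be told apart. The labels name the build mm10, a mouse genome, whereas the identifiers are rat Ensembl genes. The values of all libraries came out whole within 0.1 read after the factor was removed (100%), which gave back the reads. From the deposited counts, log2 values with a pseudocount of 1 were computed for genes with a mean of at least 1 and tested with limma 3.58.1 (R 4.3.3, trend, Benjamini-Hochberg, threshold 0.05) over the 6 libraries. A permutation test of 3 against 3 cannot go below 0.1, so none was used. The 12 other per-library columns and the authors' fold changes and p-values in the table were not used.

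Replicates of a group differed by more than sampling noise. Genes were named by a rule, namely the largest called changes per direction (15 at a mean count of at least 50 and 10 at 2000), 4 members with the smallest p per list, genes that the study's RNA-seq account names, and those read in a single medium. A further set was added after its values were seen (Slc6a6, Slc6a12, Akr1b1, Hspa1b, Slc14a1, Col1a1, Col1a2, Col6a1, Alpl, Sparc, Sp7, Dlx3, Bglap, Atf4, Cebpb, Cyp24a1, Tnfsf11, Pcna, Mki67, Lamp1, Smpd1, Neu1, Cdkn1a, Cdkn1b, Psph, Ifitm5, Notum, Slc1a4 and Hsp90b1, and further list members). Some genes that the rule selected are not reported here. The comparison and the lists were chosen with earlier results of these data known. Alternatives covered the pseudocount, the filter, the scaling, edgeR 4.0.16 and DESeq2 1.42.0 on the recovered reads, limma without the trend, a replicate block and leaving out each library.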

Additional observations from a re-analysis of the deposited data

How the results depend on the processing

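The counts of 4450 changed, 2282 higher and 2168 lower genes stayed within 1.5 times their value under every alternative but limma without the mean-variance trend, which called 2763, 1471 and 1292 and shared 2590 calls with the reported fit. The pseudocount, filter and scaling settings gave between 4367 and 4569 calls, edgeR on the recovered reads 4392 (4299 shared) and DESeq2 4066 (3949 shared). Leaving out 1 library gave 3302 to 4241 changed, 1687 to 2235 higher and 1550 to 2006 lower genes, and leaving out +NaCl replicate 1 and -NaCl replicate 3 together, an alternative chosen after seeing the data, gave 4226. No setting reversed a called gene named in the text, and 40 of the 283 genes chosen by the rule or added to it lost their call without the trend. Atf4, Trib3, Chac1, Ddit3, Inhbe, Slc7a5, Psph, Yars, Xbp1, Herpud1 and Hspa5 were among those lost in the fit without the trend. That fit called 4 ATF4 targets, 2 tRNA synthetases, 2 ribosomal protein genes and 18 mitosis genes lower and 12 sterol genes higher. Of the endoplasmic reticulum chaperone list it called 0 members lower, and DESeq2 called 6. The median log2 fold change of all genes was between -0.0094 and 0.002 in all settings. Among genes higher with +NaCl, taking those called at any fold in place of 2-fold or more gave a share of promoters with the tonicity-responsive enhancer of 3.9% and with the amino acid response core of 1.74%. Replicate numbers did not pair the libraries, since deviations of the same number correlated at 0.145, 0.006 and -0.098 and only +NaCl replicate 1 correlated best with its own number. With the replicate block 4514 genes were called (2310 higher and 2204 lower). At mean counts under 10, 2.9% of genes were called.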
